A study of Mus musculus with 4 samples.

Results

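Cell cycle RNA was followed across the leukocytes of the mouse brain 5 and 14 days after a stroke, through 40 genes taken as a fixed list of known cell cycle genes. Of these genes, 15 act mainly in S phase, 21 act in G2 or mitosis, and 4 (Stmn1, Hmgb2, Tubb5 and Cks1b) are tied to division but are also expressed in many resting cells. All 40 were among the 31053 genes of the deposited tables, and each had unique molecular identifiers (UMIs, which count captured RNA molecules) in all 4 libraries. The study used droplet-based single-cell RNA sequencing (10X Genomics 3' version 2 chemistry) of CD45high cells sorted from the ischemic hemisphere of C57/BL6 mice after transient middle cerebral artery occlusion (tMCAO), which blocks a main artery of the brain and then lets blood return. Day 5 and day 14 were each represented by 2 libraries. The groups differ only in time by their labels, and no sham-operated or uninjured brain was analysed here. The sources used here give neither age nor sex, and do not say how many mice a library holds, so p-values measure only the spread between libraries. A gate on high CD45 enriches infiltrating leukocytes, and the microglia described here are those that passed it.

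Division begins when cyclin D and cyclin E kinases release E2F factors, which switch on the genes for making deoxynucleotides and copying DNA. In S phase the MCM helicase opens DNA, PCNA clamps the polymerase to it, and ribonucleotide reductase (Rrm1, Rrm2), thymidylate synthase (Tyms) and thymidine kinase (Tk1) supply the building blocks. In G2 and mitosis cyclin B and CDK1 (Ccnb1, Ccnb2, Cdk1), topoisomerase II alpha (Top2a) and the Aurora and Polo kinases are active. Together with Ube2c and Cdc20, which work with a ubiquitin ligase, they condense, align and separate the chromosomes. In brain injury, microglia are known to divide locally, while most monocytes and neutrophils arrive after division in the bone marrow, and T cells can divide on activation.

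The S phase and G2/M members also differ in their promoters, and the letters below show that split before the expression values are given. RefSeq promoters of 300 bases (250 before to 50 after the start, build GRCm38.p6) were found for 34 of the 40 members. A member with more than 1 start was counted once, as holding the letters where any of its starts did. The percentages of all promoters count each promoter separately. On both strands, the E2F letters TTTCCCGC, TTTCGCGC, TTTGCCGC or TTTGGCGC were in 5 of 13 S phase promoters, 1 of 18 G2/M promoters and 2.26% of 32851 mouse promoters in the table. The cell cycle genes homology region (CHR) letters TTTGAA were in 12 of 18 G2/M promoters, 1 of 13 S phase promoters and 17.9% of all promoters. CCAAT, the letters that the factor NF-Y reads, was in 16 of 18 G2/M promoters, 9 of 13 S phase promoters and 37.4% of all promoters. Matches of the same or of different letters can overlap, and a match does not show that a factor binds. The 140 bases before the start are printed for an S phase member that fell in microglia (Mcm6), for 2 G2/M members of the day comparison in monocytes or macrophages (Ccnb2, Ube2c), for Top2a, and for Cdk1, the G2/M member with both E2F and CHR letters. All run 5' to 3' on the gene's strand, and capitals mark E2F, CHR and CCAAT letters on either strand.
Mcm6, chr1:128359706-128359845, minus strand: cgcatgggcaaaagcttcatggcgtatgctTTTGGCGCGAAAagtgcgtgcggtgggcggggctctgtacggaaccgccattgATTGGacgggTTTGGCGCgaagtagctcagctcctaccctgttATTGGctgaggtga
Cdk1, chr10:69352913-69353052, minus strand: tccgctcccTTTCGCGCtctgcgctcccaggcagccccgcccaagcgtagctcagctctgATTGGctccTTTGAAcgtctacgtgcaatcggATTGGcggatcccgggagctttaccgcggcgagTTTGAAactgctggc
Ccnb2, chr9:70421555-70421694, minus strand: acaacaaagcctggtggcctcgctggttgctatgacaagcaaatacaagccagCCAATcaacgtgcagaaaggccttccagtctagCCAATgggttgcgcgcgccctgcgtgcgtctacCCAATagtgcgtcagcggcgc
Ube2c, chr2:164769789-164769928, plus strand: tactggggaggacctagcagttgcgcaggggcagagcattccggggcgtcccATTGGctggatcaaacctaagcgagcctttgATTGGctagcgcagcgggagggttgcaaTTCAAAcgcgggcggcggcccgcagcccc
Top2a, chr11:99024190-99024329, minus strand: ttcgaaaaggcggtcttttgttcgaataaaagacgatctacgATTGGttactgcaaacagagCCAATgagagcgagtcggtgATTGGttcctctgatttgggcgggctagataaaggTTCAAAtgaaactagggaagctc
The Mcm6 stretch held E2F letters at 2 separate places and no CHR. The Ube2c and Top2a stretches held CHR and CCAAT letters but no E2F. The Ccnb2 stretch held CCAAT at 3 places, and the Cdk1 stretch held all 3 kinds.

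The 4 libraries held 10925 cell barcodes, 2313 to 3486 in each, with 9288054 to 13610119 UMIs per library and medians of 2882 to 4230 UMIs per barcode. After 84 barcodes of low quality and 671 with markers of more than 1 lineage were removed, cells were placed by their markers, and not by any member, into 12 classes. Of these classes, 8 had enough cells in every library to be tested, and 679 cells met no class. The tables of the day 5 libraries carry a software version in their headers and hold 191 and 326 cells under 1000 UMIs, whereas the day 14 tables carry no version and hold no cell that shallow, so a processing difference and the day cannot be told apart. Among all barcodes, 65 barcode sequences recurred between libraries. The members summed to 1779 to 1954 CPM in the 4 libraries, where CPM is the usual scaling of UMIs to a common total.

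Most dividing cells on day 5 were microglia, and on day 14 they were most often T cells. A cell was counted as dividing when it held 3 or more UMIs of the 36 S phase and G2/M members after every cell had been thinned at random to 1000 UMIs. By this count 8.91% and 8.67% of the cells were dividing on day 5 and 3.99% and 4.79% on day 14. Microglia held 64.0% and 58.2% of all dividing cells on day 5 but 8.51% and 4.76% on day 14. T cells went the other way, from 2.54% and 0.797% of dividing cells to 40.4% and 37.1%. These make-ups depend on how many cells each class contributed: microglia were 33.7% and 43.5% of the cells on day 5 and 8.82% and 4.93% on day 14, while T cells were 2.04% and 1.58% and then 24.2% and 15%.

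Mature neutrophils, which no longer divide, served as a reference for the background of the count. Their shares were 5.97%, 4.44%, 5.45% and 1.96% in day 5 replicates 1 and 2 and day 14 replicates 1 and 2, at 985 to 1609 median UMIs per cell. These counts rested on Cks2, a small CDK-binding protein, which had 71 UMIs in 218 neutrophils at equal depth. Pcna followed with 17. No neutrophil reached 5 UMIs, which allows up to 4.48%, 6.67%, 5.45% and 5.88% in the same libraries. Cks2 was found in 22.5% of neutrophils and 17.7% of immature granulocytes. It was found in 5.95% of microglia, 4.33% of monocytes or macrophages and 5.84% of T cells. The neutrophil level therefore need not be the background of other classes. Shares near 2% to 6% at the 3-UMI limit lie within that level, which does not show whether those cells divide. For whole classes the share at 5 UMIs is given as well.

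**Figure D1:**
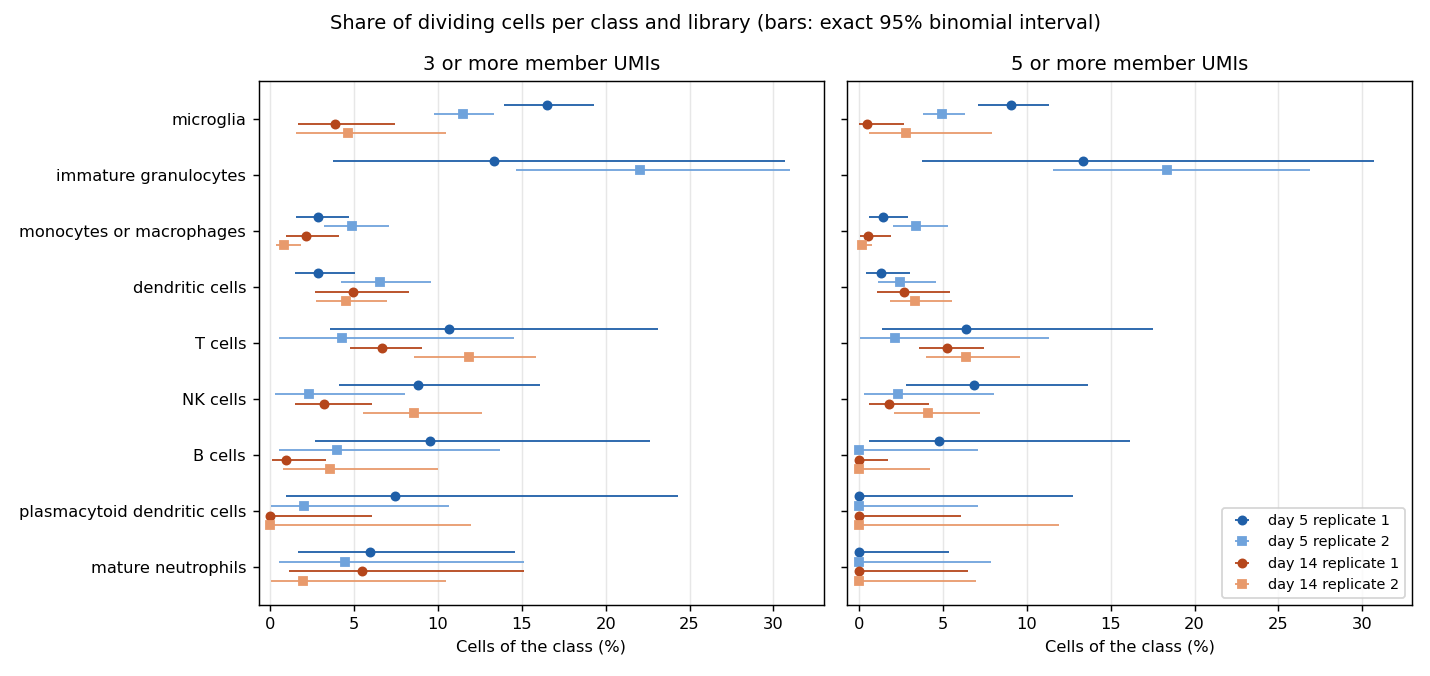
Share of dividing cells (percent of cells with at least 1000 UMIs) in each class and library, with exact 95% binomial bars that cover counting error only. Day 5 microglia stand at 16.5% and 11.5%, above both day 14 microglia libraries and above the mature neutrophils.

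The dividing share of microglia was higher in both day 5 libraries than in either day 14 library. In day 5 replicate 1, 126 of 764 microglia were dividing (16.5%, exact 95% binomial interval 13.9 to 19.3), and in replicate 2 it was 146 of 1272 (11.5%, 9.78 to 13.4). On day 14 the counts were 8 of 208 (3.85%, 1.67 to 7.44) and 5 of 108 (4.63%, 1.52 to 10.5). The libraries of the 2 days did not overlap. The mean went from 14.0% ± 3.55 (SD, n = 2 libraries) to 4.24% ± 0.554, with an exact two-sided permutation p of 0.333, the smallest that 2 against 2 libraries can give (0.667 after adjustment over 8 classes). At 5 UMIs the shares were 9.03%, 4.95%, 0.481% and 2.78%, again without overlap. Median depth was 2509 to 3341.5 UMIs per microglial cell, and without thinning 40.7%, 32.4%, 17.3% and 19.4% of microglia reached 3 UMIs, against 12.3%, 7.45%, 14.5% and 15.7% of neutrophils.

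Within microglia the dividing cells were unevenly spread. Among cells in which P2ry12 and Tmem119, an ADP receptor and a surface protein of resting microglia, together made up under 10 of 10000 UMIs, 84 of 340 (24.7%) and 78 of 435 (17.9%) were dividing on day 5. Among cells above that level it was 42 of 424 (9.91%) and 68 of 837 (8.12%). On day 14 the low cells gave 5 of 128 and 4 of 71 and the high cells 3 of 80 and 1 of 37. At 5 UMIs the low cells gave 14.1% and 7.36% on day 5 and the high cells 4.95% and 3.70%. On day 14 the 3-UMI shares lay within the neutrophil level, and at 5 UMIs 0 of 128 and 2 of 71 low cells and 1 of 80 and 1 of 37 high cells counted, so the split is described for day 5 alone and carries no test. A cluster of cells made without the members, with Ttr, Cd5l and Mmp12 among its leading genes, had 120 of 453 (26.5%, 22.5 to 30.8) and 116 of 525 (22.1%, 18.6 to 25.9) dividing cells on day 5. On day 14 it had 3 of 16 (18.8%, 4.05 to 45.6) and 5 of 18 (27.8%, 9.69 to 53.5), so within this cluster the intervals of the days overlapped. Birc5, a member, is among that cluster's 10 leading genes, so the cluster is not independent of division. It held 43.4% of gated microglia on day 5 and 8.23% on day 14. A cluster led by Apoc1, Cst7 and Gpnmb, genes of lipid handling and of disease-associated phagocytes, held 0.769% and 40.8% of gated microglia. Those 0.769% were 17 cells. In all cells of that cluster, also those outside the class, 1 of 47, 1 of 35, 4 of 106 and 1 of 60 were dividing. The cluster led by P2ry12 and Tmem119 had 1 of 134, 3 of 371, 1 of 27 and 0 of 7. The dividing counts of each of these clusters cover all its cells, whatever their class.

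**Figure D2:**
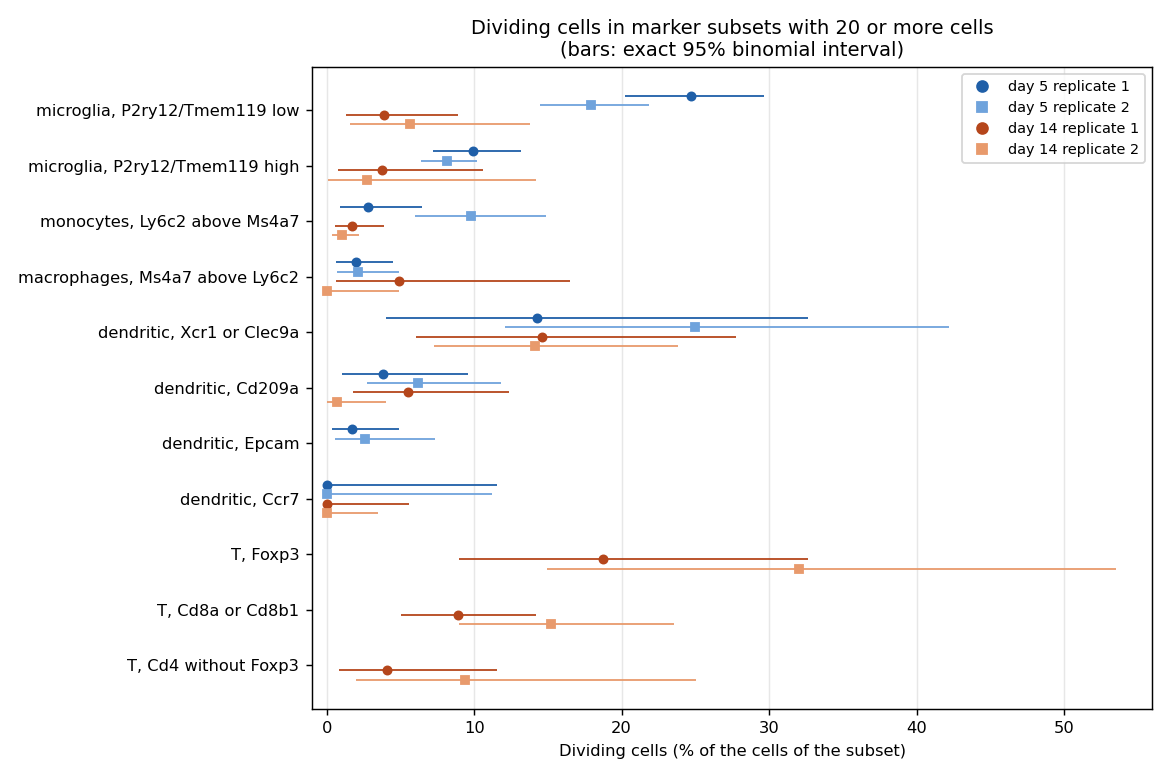
Share of dividing cells (percent) by marker-defined subset and library, with exact 95% binomial bars. Microglia with low summed P2ry12 and Tmem119 lie above those with a high sum on day 5, and Ccr7 dendritic cells lie at 0 in all 4 libraries.

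Summed UMIs per library and class were then compared between days with edgeR's quasi-likelihood test, with p-values adjusted by the Benjamini-Hochberg method over all genes tested in the class. A lower sum can come from fewer dividing cells or from less RNA per dividing cell, which these sums cannot tell apart. In microglia 4 members fell and 0 rose on day 14, of 39 that passed the filter on low counts, against 0.647% of all 8653 tested genes that fell. All 4 were S phase genes, none of the 21 G2/M members passed, and 24 of the 39 had an unadjusted p under 0.05. The estimates of the 2 groups were close, with medians of -1.16 for S phase and -1.03 for G2/M members on the log2 scale. An unadjusted p under 0.05 was found for 10 of 14 S phase and 11 of 21 G2/M members. All 39 estimates were negative, with a median of -0.97 on the log2 scale, where the median of all tested genes was 0.00082. These numbers describe the members that passed the filter and not all 40.

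Tk1, which salvages thymidine for DNA synthesis, stood at 37.2 and 26.0 CPM in the day 5 libraries and at 1.27 and 9.61 on day 14 (log2 fold change -2.56 ± 0.57 SE, edgeR adjusted p = 0.0348). Rrm1, the large subunit of ribonucleotide reductase, stood at 24.9 and 25.8 and then at 6.34 and 5.77 (-1.87 ± 0.38, adjusted p = 0.0193). Mcm6, a subunit of the replicative helicase, stood at 29.7 and 35 and then at 5.07 and 11.5 (-1.91 ± 0.38, adjusted p = 0.0197). In all 3 genes both day 14 libraries lay below both day 5 libraries. Pclaf, which binds PCNA at replication forks, stood at 54.3 and 38.0 and then at 7.61 and 11.5 (-2.12 ± 0.40, adjusted p = 0.0140), likewise without overlap. Overlap or its absence, here and below, only describes the values of the 4 libraries. It rests on the same values as the edgeR test and adds no support to it. Pcna itself stood at 124 and 105 and then at 57.1 and 67.3 (-0.73 ± 0.19, adjusted p = 0.0659) and did not pass. The microglial sums held 3094184 and 5005114 UMIs on day 5 but 788597 and 520190 on day 14. All 15 S phase members together had 137 and 119 UMIs on day 14. The day 14 levels of Tk1, Rrm1, Mcm6 and Pclaf therefore rest on few molecules.

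Of the other S phase members with fixed reporting, Mcm5 in microglia stood at 22.6 and 21.4 on day 5 and 6.34 and 11.5 CPM on day 14 (log2 fold change -1.20 ± 0.38, edgeR adjusted p = 0.140). Tyms stood at 28.8 and 24.0 and then at 11.4 and 15.4 (-0.83 ± 0.33, adjusted p = 0.267). Neither overlapped between days and neither passed. Among G2/M members, the proliferation antigen Mki67 stood at 13.3 and 8.99 and then at 0 and 9.61 (-1.30 ± 0.79, adjusted p = 0.503). Top2a, which untangles sister chromatids, stood at 23.9 and 20.8 and then at 8.88 and 21.1 (-0.50 ± 0.37, adjusted p = 0.607). Both overlapped, since day 14 replicate 2 was at the day 5 level. Ccnb1, cyclin B1, stood at 31.7 and 20.6 and then at 3.80 and 11.5 (-1.70 ± 0.52, adjusted p = 0.128). Of the 2 day 14 libraries, replicate 1 had the lower values of these 3 G2/M members, and without it the estimate for Top2a was 0.09. Without that library none of the 4 S phase calls remained, at log2 fold changes of -1.52 (Tk1), -1.97 (Rrm1), -1.34 (Mcm6) and -1.81 (Pclaf), and with DESeq2 Mcm6 and Rrm1 lost their calls.

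Beside this, T cell markers in the microglial sums went from 2.26 and 3.6 to 44.4 and 21.1 CPM, and the 6 immature granulocyte markers went from 11.6 and 43.0 to 1.27 and 0. The part of either in the result was not tested. Of the lists of other cell cycle genes, no gene of 15 replication genes, 17 mitosis genes, 6 histones or 10 G1 and E2F genes tested was called in microglia. Most of their estimates were negative all the same. The median log2 fold changes were -0.45, -0.85, -0.43 and -0.44 in the same order, with 0, 1, 1 and 2 positive estimates. Among 14 growth-arrest genes 3 rose on day 14, where 2.59% of all tested genes rose. As a list they did not shift, with 7 positive estimates and a median of -0.0083. Gadd45a, a stress-induced inhibitor of CDK1, went from 12.3 and 11.8 to 24.1 and 28.8 (log2 fold change 1.29, edgeR adjusted p = 0.0371). Gadd45b, its relative, went from 76.0 and 76.3 to 159 and 119 (1.06, adjusted p = 0.00423). Cdkn1a, the CDK inhibitor p21, went from 136 and 146 to 200.4 and 237 (0.79, adjusted p = 0.00952). For all 3 the days did not overlap.

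**Figure D3:**
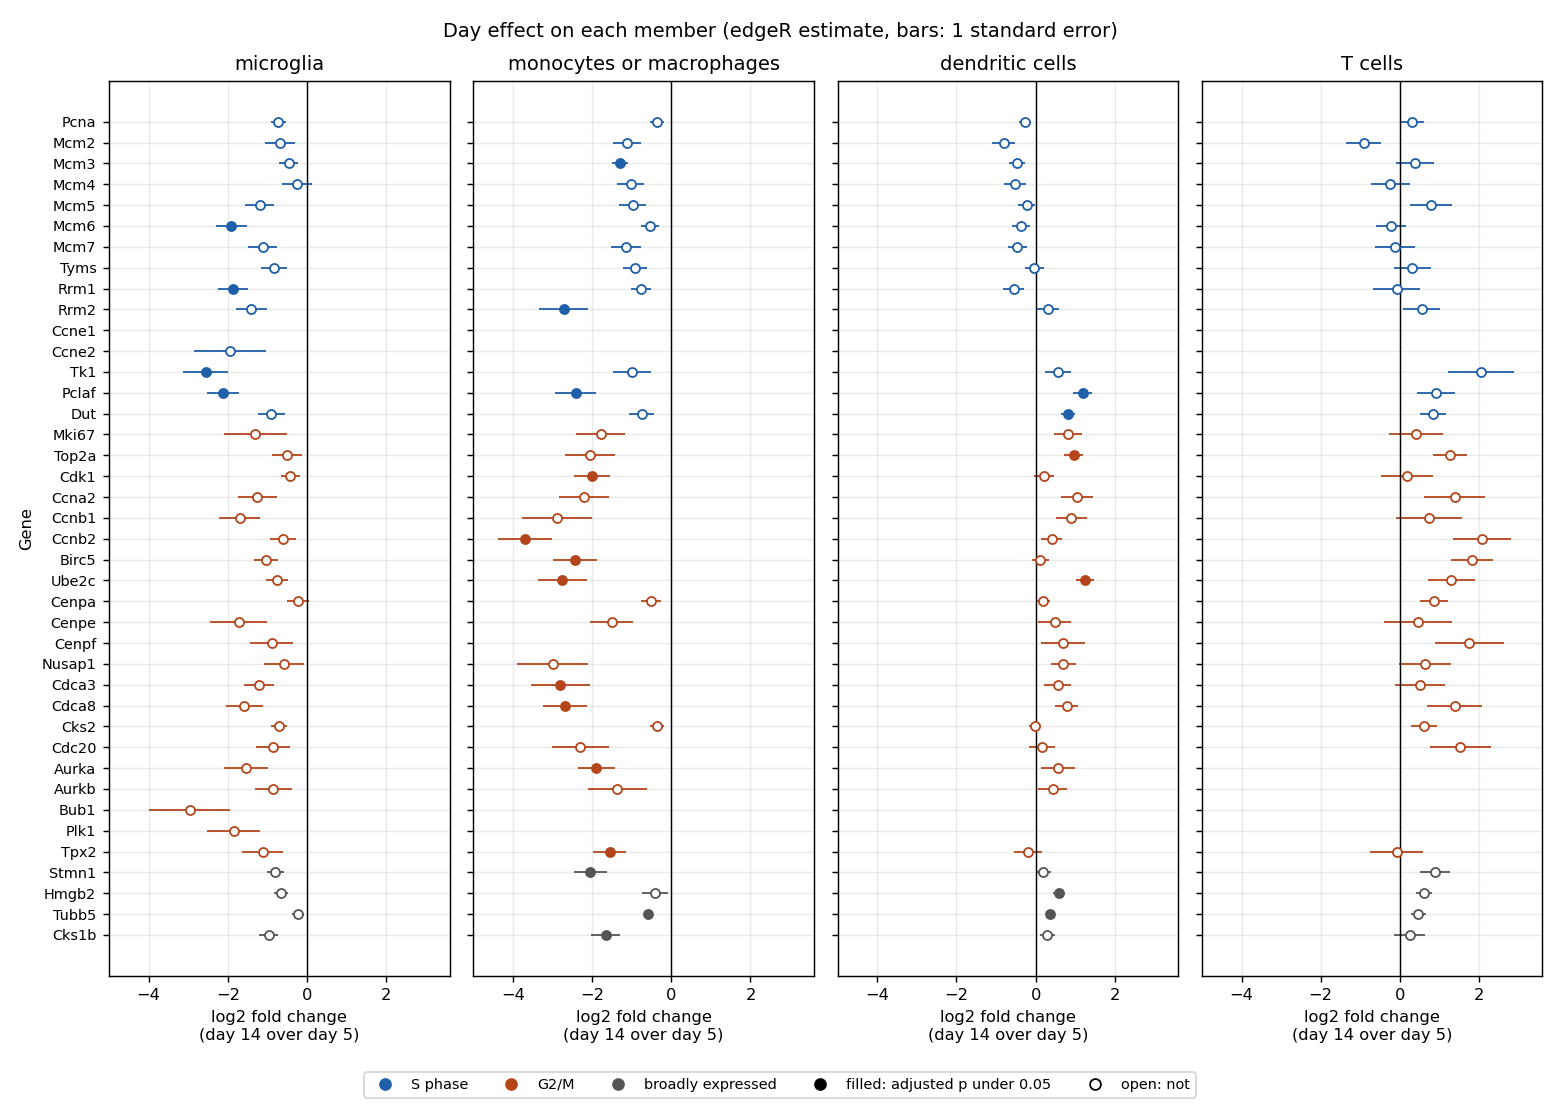
Log2 fold change (day 14 over day 5, edgeR) of each tested member in microglia, monocytes or macrophages, dendritic cells and T cells, with standard errors and filled points for members called at an adjusted p under 0.05; Aurkb in T cells, at 0 in both day 5 libraries, is not drawn. All estimates lie below 0 in microglia and in monocytes or macrophages, and most lie above 0 in dendritic cells and T cells.

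In monocytes or macrophages 14 members fell and 0 rose on day 14, of 35 tested, where 3.62% of all tested genes fell, and these were mostly G2/M genes. By group, 8 of 18 G2/M members, 3 of 13 S phase members and 3 of 4 broadly expressed members were called, and 29 of 35 had an unadjusted p under 0.05. The median estimate was -1.56 and all 35 were negative. Ccnb2, cyclin B2, stood at 15.9 and 48.6 CPM on day 5 and at 4.75 and 1.09 on day 14 (log2 fold change -3.70 ± 0.69, edgeR adjusted p = 0.00793). Ube2c, the ubiquitin-conjugating enzyme that helps destroy cyclin B, stood at 15.2 and 40.8 and then at 8.31 and 1.63 (-2.75 ± 0.63, adjusted p = 0.0220). Cdca3, which promotes entry into mitosis, stood at 10.4 and 22.3 and then at 5.94 and 0.272 (-2.81 ± 0.74, adjusted p = 0.0418). The 2 days did not overlap for these genes, and within each day the replicates differed, with day 5 replicate 2 the highest and day 14 replicate 2 the lowest. Rrm2, the S phase subunit of ribonucleotide reductase, stood at 15.2 and 20.6 and then at 6.53 and 0.543 (-2.72 ± 0.61, adjusted p = 0.0198).

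Several central members of this class did not pass. Mki67 went from 5.18 and 17.7 to 4.75 and 2.17 (log2 fold change -1.79, edgeR adjusted p = 0.113), Top2a from 11.8 and 33.4 to 10.7 and 2.17 (-2.05, adjusted p = 0.0753), and Ccnb1 from 7.76 and 20.6 to 5.34 and 0 (-2.88, adjusted p = 0.0756). Pcna was the steadiest, at 102 and 75.0 and then 71.8 and 61.1 (-0.35, adjusted p = 0.248). Mcm5 had an estimate of -0.97 (adjusted p = 0.114) and Tyms one of -0.91 (adjusted p = 0.0971). The count depended on single libraries: without day 5 replicate 1 it was 27, and without day 14 replicate 2 it was 5. That last library had 6 dividing cells of 719. With DESeq2 it was 5, and Ccnb2, Ube2c, Cdca3 and Rrm2 were not among them.

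The dividing share of monocytes or macrophages was 2.82%, 4.90%, 2.11% and 0.834% in the 4 libraries, with no overlap between days (mean 3.86% ± 1.47 and 1.47% ± 0.899, SD, n = 2; exact permutation p = 0.333, adjusted 0.667). These shares lie at or below the neutrophil level. At 5 UMIs, where no neutrophil counted, they were 1.41%, 3.39%, 0.526% and 0.139%. Cells with more UMIs of Ly6c2, a marker of freshly arrived monocytes, than of the macrophage gene Ms4a7 gave 5 of 177 and 19 of 194 dividing cells on day 5 and 5 of 296 and 6 of 584 on day 14. Cells with more Ms4a7 gave 5 of 256, 5 of 234, 2 of 41 and 0 of 73. The 9.79% of Ly6c2 cells in day 5 replicate 2 was the 1 of these 8 shares above the neutrophil level. The make-up of the class differed between days: a cluster led by Ms4a7 and Gpnmb held 30.1% of it on day 5 and 3.37% on day 14, and a cluster led by Vcan and Plac8 went from 8.0% to 52.1%. A cluster with Ear2, Ace, Elane and Mpo among its leading genes, of which Elane and Mpo are granule enzymes of granulocyte precursors, went from 16.8% to 4.37% of the class. In all its cells, also those outside the class, 11 of 98, 24 of 161, 4 of 33 and 1 of 24 were dividing. Without that cluster, a setting chosen after seeing the data, the class had 8 of 432, 9 of 424, 5 of 352 and 5 of 699 dividing cells, and 12 of 29 tested members fell between days, 11 of them shared with the 14. Its microglia marker sum went from 1050 and 1128 to 366 and 345 CPM, and its immature granulocyte sum from 11.1 and 40.4 to 1.78 and 0.814. The part of these marker sums in the fall of the members was not tested.

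Among the other lists in monocytes or macrophages, 5 of 11 mitosis genes fell. Prc1, which bundles the midzone of the spindle, went from 5.92 and 9.9 to 0 and 0.272 CPM (log2 fold change -5.01, edgeR adjusted p = 0.00232). Kif22, a chromosome-binding kinesin, had an estimate of -2.69 (adjusted p = 0.0204), and Racgap1, a cytokinesis protein, one of -2.01 (adjusted p = 0.0112). Of 14 replication genes 0 were called, with 0 positive estimates and a median of -0.64. Of 12 growth-arrest genes 4 rose, where 6.63% of all tested genes rose, among them Gadd45b, from 73.2 and 57.7 to 171 and 126 (1.24, adjusted p = 0.00179), and the antiproliferative gene Btg1, from 794 and 866 to 1404 and 1308 (0.78, adjusted p = 0.000985). Ccnd2, cyclin D2 of G1, rose from 37.0 and 49.9 to 58.8 and 78.5 (0.77, adjusted p = 0.0319), a call that was lost without the cluster led by Ear2.

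Dendritic cells ran in the opposite direction for a few members. On day 14, 6 of 36 tested members rose and 0 fell, where 10.3% of all tested genes rose, so the members' share is not far above the background of this class. Ube2c stood at 13.5 and 13.3 CPM on day 5 and at 33.1 and 29.8 on day 14 (log2 fold change 1.26 ± 0.23, edgeR adjusted p = 0.000784). Pclaf stood at 20.4 and 47.1 and then at 75.6 and 71.4 (1.19 ± 0.25, adjusted p = 0.00239). Top2a stood at 13.9 and 23.5 and then at 39.8 and 31.4 (0.96 ± 0.25, adjusted p = 0.0108). None of the 3 overlapped between days. Dut, which keeps uracil out of DNA, stood at 27.3 and 27.6 and then at 43.8 and 49.8 (0.82 ± 0.18, adjusted p = 0.00330). Hmgb2 and Tubb5 were the other two called. With DESeq2 Pclaf, Top2a, Dut and Tubb5 lost their calls, and with clusters as classes Ube2c, Top2a, Hmgb2 and Tubb5 did, so none of the 6 kept its call under both settings.

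The S phase and G2/M members of dendritic cells differed in sign: 17 of 19 G2/M estimates were positive and 4 of 13 S phase estimates were. Mki67 (0.82, edgeR adjusted p = 0.129) and Ccnb1 (0.90, adjusted p = 0.136) were positive without passing. Pcna (-0.27, adjusted p = 0.261) and Mcm5 (-0.23, adjusted p = 0.527) were negative without passing. Tyms stood near 0 (-0.03, adjusted p = 0.945). Without day 5 replicate 1, 5 members were called and Hmgb2, Top2a and Tubb5 were not among them, and without day 5 replicate 2, 12 were called. Of the histone list, Hist1h2ap, a histone made with DNA, went from 32.5 and 12.8 to 313 and 58.5 (log2 fold change 2.95, adjusted p = 0.00132). Ccnd1, cyclin D1, rose from 107 and 119 to 219 and 200.1 (0.93, adjusted p = 2.38e-05), Gadd45b rose from 89.4 and 105 to 249 and 182 (1.17, adjusted p = 2.14e-05), and Myc fell from 15.2 and 12.3 to 5.97 and 6.67 (-1.07, adjusted p = 0.0338).

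The share of dividing dendritic cells was 2.86%, 6.54%, 4.92% and 4.52% and overlapped between days. At 5 UMIs it was 1.30%, 2.45%, 2.65% and 3.33%, without overlap (exact permutation p = 0.333, adjusted 0.889). The count was split by subset marker, with no test between subsets. Cells with Xcr1 or Clec9a, receptors of the cross-presenting cDC1 lineage, gave 4 of 28, 9 of 36, 7 of 48 and 11 of 78 dividing cells. Cells with Ccr7, the homing receptor of mature migrating dendritic cells, gave 0 of 30, 0 of 31, 0 of 64 and 0 of 105. Over both libraries of a day this allows up to 4.92% of Ccr7 cells on day 5 and 1.78% on day 14. Cells marked by Epcam gave 3 of 176, 3 of 116, 0 of 15 and 0 of 18. Cells marked by Cd209a gave 4 of 104, 8 of 129, 5 of 91 and 1 of 137, and 1, 1, 2 and 1 at 5 UMIs. The remaining cells gave 0 of 46, 4 of 55, 1 of 46 and 7 of 82. The Xcr1 or Clec9a cells were deeper (6904 to 7858 median UMIs) than the Ccr7 cells (2482 to 4942), and all cells were thinned to the same depth before counting. The make-up of the class moved with the day: the cluster led by Epcam went from 63.8% to 10.7% of it and the cluster led by Xcr1 and Clec9a from 10.5% to 34.6%, and the part of this in the member changes was not tested.

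T cells carried member RNA on both days. Their dividing shares were 5 of 47 (10.6%), 2 of 47 (4.26%), 38 of 571 (6.65%, 4.75 to 9.02) and 39 of 329 (11.9%, 8.57 to 15.8), which overlapped between days. At 5 UMIs they were 6.38%, 2.13%, 5.25% and 6.38%. Of 35 tested members 0 were called between days with edgeR (1.28% of all genes in either direction) and 12 had an unadjusted p under 0.05, while DESeq2 also called 0. Top2a stood at 52.9 and 19.7 on day 5 and at 83.0 and 90.7 CPM on day 14 (log2 fold change 1.26 ± 0.43, edgeR adjusted p = 0.218). Day 5 replicate 2 was the low library: Mki67 stood at 45.4 and 0 and then at 30.5 and 33.8 (0.41, adjusted p = 0.921), and Ccnb1 at 22.7 and 0 and then at 19.5 and 20.5 (0.72, adjusted p = 0.863). Without that library both estimates turned negative (-0.36 and -0.05). Mcm5 (0.78, adjusted p = 0.679), Pcna (0.30, adjusted p = 0.827) and Tyms (0.32, adjusted p = 0.907) did not pass, and the Tyms estimate was -0.17 without day 5 replicate 2. Aurkb, Aurora B kinase, was at 0 in both day 5 libraries and at 18.3 and 18.7 CPM on day 14, and no fold is given. Without day 5 replicate 1, 6 members were called, and without day 14 replicate 1 there was 1.

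Among T cells of day 14 the share differed by subset. Cells with Foxp3, the regulatory T cell factor, gave 9 of 48 (18.8%, 8.95 to 32.6) and 8 of 25 (32.0%, 14.9 to 53.5). Cells with Cd8a or Cd8b1 and no Foxp3, the cytotoxic lineage, gave 15 of 169 (8.88%, 5.05 to 14.2) and 16 of 105 (15.2%, 8.97 to 23.6). Cells with Cd4 alone, the helper lineage, gave 3 of 73 (4.11%, 0.856 to 11.5) and 3 of 32 (9.38%, 1.98 to 25). The largest group, cells with neither or both of Cd4 and Cd8 and no Foxp3, gave 11 of 281 (3.91%, 1.97 to 6.90) and 12 of 167 (7.19%, 3.77 to 12.2). In both libraries these 4 groups stood in the order given, and within a library neighbouring intervals overlapped. At 5 UMIs the shares in the same order were 16.7%, 5.92%, 4.11% and 3.20% in replicate 1 and 20%, 9.52%, 3.13% and 2.99% in replicate 2. Median depth before thinning was 2922 and 3019 UMIs in the Foxp3 cells and 2753 and 3033 in the Cd8 cells. It was 2064 and 2694 in the Cd4 cells and 1991 and 2329 in the largest group. The markers were read before thinning, and the part of depth in this order was not tested. Of the UMIs in dividing Foxp3 cells, 13 were S phase and 42 G2/M in day 14 replicate 1, and 26 and 23 in replicate 2.

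NK cells gave 8.82%, 2.3%, 3.23% and 8.58% dividing cells, with 1 high and 1 low library on each day. At 5 UMIs the shares were 6.86%, 2.3%, 1.79% and 4.10%. Of 25 members tested, 0 were called by edgeR (4.81% of all genes), 2 had an unadjusted p under 0.05, and DESeq2 called 0. Pcna stood at 152 and 157 on day 5 and at 94.0 and 115 on day 14 (log2 fold change -0.42, edgeR adjusted p = 0.439), Mcm5 at 85.0 and 43.4 and then 18.2 and 61.4 (-0.52, adjusted p = 0.757), Top2a at 89.5 and 48.8 and then 57.5 and 77.8 (0.08, adjusted p = 0.949), and Tyms at 35.8 and 32.6 and then 28.1 and 42.0 (0.19, adjusted p = 0.907). Of these Pcna alone did not overlap between days. Leaving out replicate 2 turned the Top2a estimate to -0.25 (day 5) or -0.15 (day 14), and leaving out replicate 1 turned that of Mcm5 to 0.09 (day 5) or 0.04 (day 14). Dropping day 5 replicate 1 or day 14 replicate 2 left 1 member called. Outside the members, Cdk6, a kinase of G1, went from 31.3 and 10.9 to 67.3 and 86.0 (1.93, adjusted p = 0.0230), and the histone variant gene H2afz fell from 2045 and 1905 to 915 and 1166 (-0.79, adjusted p = 0.00534).

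Few members could be tested in the smaller classes. In neutrophils 1 of 5 fell (3.79% of all tested genes fell): Stmn1, which destabilises microtubules, went from 86.3 and 170 to 17.6 and 16 (log2 fold change -2.64 ± 0.65, edgeR adjusted p = 0.0205). Pcna in neutrophils was 64.7 and 120 and then 105 and 64.0 (0.09, adjusted p = 0.935), and its estimate turned negative without day 5 replicate 1 (-0.35) or day 14 replicate 1 (-0.29). The neutrophil sums of day 14 held 113907 and 125012 UMIs, so the Stmn1 levels there rest on few molecules. At equal depth Stmn1 was found in 14.2% of immature granulocytes and 4.59% of neutrophils. Immature granulocytes numbered 30 and 110 on day 5 and 2 and 0 on day 14, and their part in the fall was not tested. Stmn1 did not pass with DESeq2 (adjusted p = 0.132). Among fits with 1 library dropped, it kept its call only without day 5 replicate 1 (3 members called), and with any of the other libraries dropped 0 members were called. Gadd45b rose from 356 and 290 to 1299 and 1856 (2.48, adjusted p = 3.19e-05). Of 3 members tested in plasmacytoid dendritic cells 0 were called by edgeR or DESeq2 (1.6% of all genes), where 1 had an unadjusted p under 0.05. The count was 2 when day 5 replicate 2 was dropped. Of 5 in B cells 0 were called by edgeR and 1 by DESeq2 (0.861% of all genes), where 1 had an unadjusted p under 0.05. Dropping replicate 2 of day 5 gave 5, and dropping that of day 14 gave 2. Pcna had an estimate of -0.77 (adjusted p = 0.430) in plasmacytoid dendritic cells and of -0.97 (adjusted p = 0.423) in B cells.

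**Figure D4:**
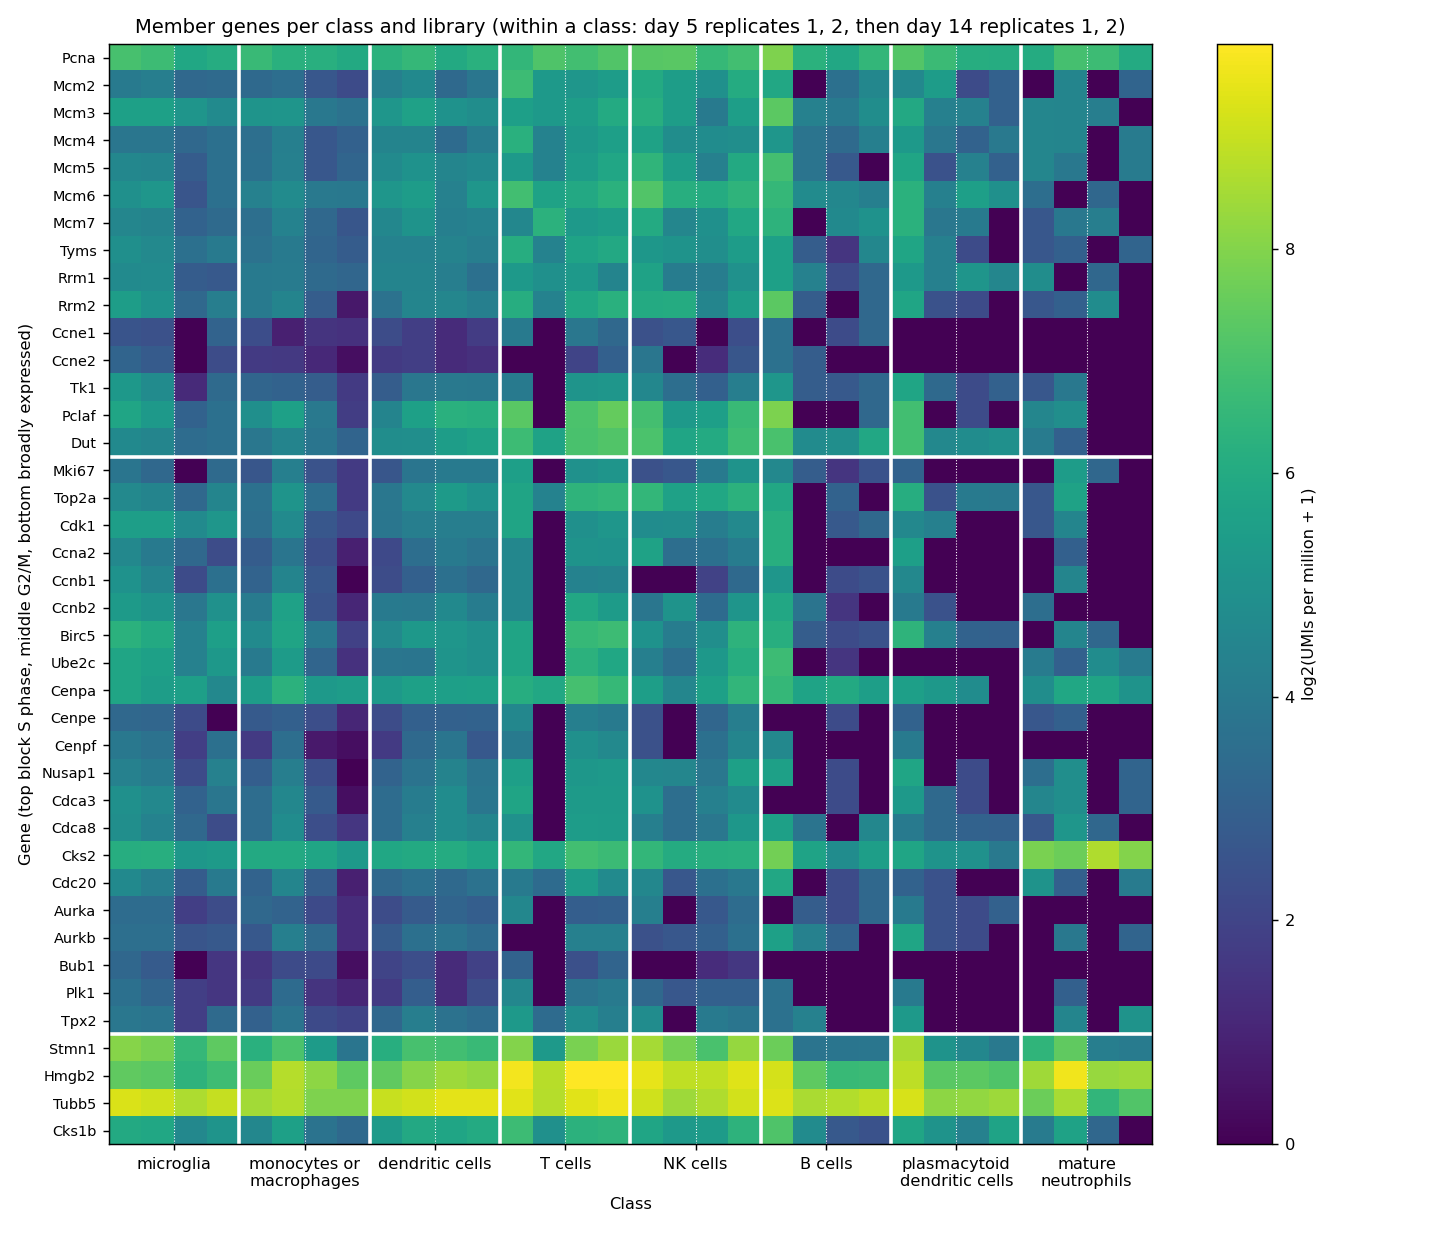
Level of each of the 40 members (log2 of CPM of the class plus 1) in each library of the 8 tested classes, with S phase members at the top and G2/M members in the middle. Rows are read across, not against each other, and the Cks2 row is brightest in mature neutrophils, at 198 to 404 CPM.

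Immature granulocytes were rich in member RNA, and nearly all of them came from the day 5 libraries. They gave 4 of 30 (13.3%, 3.76 to 30.7) and 24 of 109 (22%, 14.6 to 31.0) dividing cells on day 5, while day 14 held 2 such cells in replicate 1, 1 of them dividing, and 0 in replicate 2. Their G2/M members summed to 2448 and 1713 CPM and their S phase members to 1078 and 1089 on day 5. The same sums were 609 and 509 (G2/M) and 502 and 436 (S phase) in microglia of those libraries. Mpo and Elane encode granule enzymes made at the promyelocyte stage. Within the class, 14 of 15 day 5 cells with 2 or more UMIs of Mpo or Elane were dividing, against 14 of 124 with fewer. This marker limit was read before thinning, at median depths of 10706 and 3771 UMIs, and the part of depth was not tested. The gate of the class uses granule genes, so this split describes its own cells and carries no test.

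The S phase share, which is the S phase part of all S phase and G2/M UMIs in the dividing cells of a class, was compared between days in 3 classes, and differences between classes were not tested. In microglia it was 36.8% (242 of 657 UMIs, 33.1 to 40.7) and 39.6% (36 to 43.2) on day 5 and 29.6% (13.8 to 50.2) and 32.3% (16.7 to 51.4) on day 14, the latter from 27 and 31 UMIs. The days did not overlap (mean 38.2% ± 1.95 and 30.9% ± 1.86, SD, n = 2; exact permutation p = 0.333, adjusted 0.500 over 3 classes), but the counting intervals of day 14 cover the day 5 values. These day 14 UMIs came from 8 and 5 microglia, whose dividing shares lay within the neutrophil level. That level does not show whether such cells divide, and Cks2, its main gene, counts as G2/M. The intervals also treat UMIs of the same cell as independent. In dendritic cells it was 50%, 44.1%, 41.6% and 38.6% (exact permutation p = 0.333, adjusted 0.500). In monocytes or macrophages it was 37.7%, 31.3%, 38.6% and 4.76%, where the last value is 1 of 21 UMIs (0.12 to 23.8), and without that library the difference between days was 4.16 points in place of -12.8. The day 14 values of this class came from 8 and 6 cells, at dividing shares at or below the neutrophil level. T cells gave 39.8% and 48.8% on day 14. NK cells gave 61.9% and 60.0% on day 5 and 37.3% and 44.2% on day 14, with 20 UMIs in day 5 replicate 2. Most dividing microglia of day 5 held UMIs of both groups, 95 of 126 and 96 of 146.

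**Figure D5:**
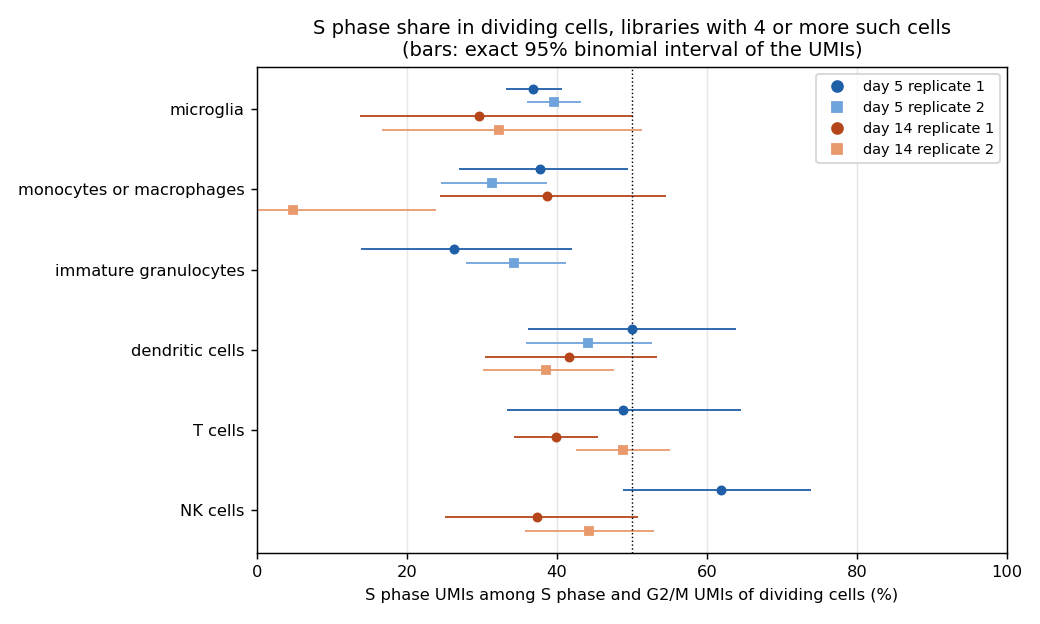
S phase share (percent of S phase and G2/M UMIs in dividing cells) by class and library, with exact 95% binomial bars that cover counting error only. Libraries with fewer than 4 dividing cells of a class are not drawn. NK cells of day 5 replicate 1 have the highest value drawn (61.9%), and the 4.76% of monocytes or macrophages rests on 21 UMIs.

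Taken over the 4 libraries together, T cells stood above the mean of the other tested classes in nearly all members. In 1 fit of the 8 classes with library as a block, each class was set against the mean of the others for the 34 members tested. In T cells 33 of 34 were higher (19.8% of all tested genes were), with Cenpf, a kinetochore protein (log2 difference 3.0), Ube2c (2.52), Pclaf (2.23) and Ccnb2 (2.15) the largest. Cenpf stood at 15.1, 0, 29.9 and 24.0 CPM in T cells and at 2.22, 10.7, 0.594 and 0.271 in monocytes or macrophages. This did not hold in each library: in day 5 replicate 2 the G2/M members summed to 157 CPM in T cells. They summed to 509 in microglia and 549 in monocytes or macrophages of that library. In day 5 replicate 1 and day 14 replicates 1 and 2 the T cell sums were 756, 940 and 864, against 609, 226 and 344 in microglia. The count in T cells was 10 without day 14 replicate 1. In NK cells 10 were higher (18.7% of all genes), 7 of 13 S phase members against 1 of 17 G2/M members, with Mcm2 (1.74), Mcm6 (1.67), Top2a (1.63) and Dut (1.45) the largest. Mcm6 stood at 143, 70.5, 65.9 and 82.9 in NK cells, above microglia in each library. The NK count was 18 without either day 5 library and 5 without day 14 replicate 2.

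Members of microglia were called on both sides of that mean. There 8 of 34 were higher and 2 lower, a smaller share than the 44.4% of all genes called in either direction, and DESeq2 called 2 higher and 3 lower. Ube2c (2.04), Cdk1 (1.49), Ccnb1 (1.41) and Ccnb2 (1.32) led, while Hmgb2 (-1.21) and Mcm4 (-0.64) were lower. The microglial count was 5 when replicate 1 of either day was dropped. In monocytes or macrophages 13 were lower and 0 higher (14.7% of all genes lower), 10 of them among the 13 S phase members, led by Mcm2 (-1.51), Dut (-1.44), Tk1 (-1.27) and Rrm2 (-1.22). Dropping day 5 replicate 1 gave 4, and dropping day 14 replicate 2 gave 6. In dendritic cells 1 of 34 members was higher, Tubb5 (0.68), a smaller share than the 20.7% of all genes. The count there was 4 or 2 when day 5 replicate 1 or 2 was dropped. In plasmacytoid dendritic cells 2 of 34 were lower, a smaller share than the 7.49% of all genes: Cks2 (-1.55) and the centromeric histone Cenpa (-1.20). The mean for Cks2 includes neutrophils, which were 2.29 above the mean of their other classes. That count was 4 with day 5 replicate 1 dropped and 1 with either day 14 library dropped.

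In neutrophils 1 member was higher and 3 were lower. Cks2 was higher (log2 difference 2.29, edgeR adjusted p = 3.88e-10), at 232, 198, 404 and 256 CPM against 68.5, 70.1, 35.5 and 40.4 in microglia. Mcm6 (-2.83), Dut (-2.46) and Tubb5 (-1.11) were lower there. Among the 34 members tested these calls are a smaller share than the 27.1% of all genes called. In B cells 0 members were called by edgeR and 2 by DESeq2 (27.4% of all genes), with 3 at an unadjusted p under 0.05, and the count was 2 without day 5 replicate 1.

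Whether the change between days differed between classes was tested directly. Between microglia and monocytes or macrophages, 1 member differed, with a positive difference (1.43% of all genes). Ccnb2 stood at 39.8, 32.6, 13.9 and 30.8 CPM in microglia, against 15.9, 48.6, 4.75 and 1.09 in monocytes or macrophages (difference of log2 fold changes 3.09 ± 0.81, edgeR adjusted p = 0.0368). DESeq2 called 0, and dropping a library gave 8 and 2 calls (day 5 replicates 1 and 2) or 12 and 2 calls (day 14 replicates 1 and 2). The larger number of G2/M calls in monocytes or macrophages is therefore not shown to differ from microglia for the other members. Between T and NK cells 0 members differed by edgeR or DESeq2 (0.435% of all genes), with counts of 1 without day 5 replicate 1 or day 14 replicate 2.

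The dividing cells can also be described by genes that did not select them, with no test since they were picked in the same cells. Among mitosis genes outside the list with 20 or more UMIs, 9 of 25 in microglia, 3 of 19 in monocytes or macrophages, 20 of 23 in dendritic cells, 16 of 21 in T cells and 11 of 11 in NK cells were higher in dividing than in other cells in every library, and none was lower in every library. This rule covered 4 libraries in the first 3 classes and 3 in T and NK cells. It included day 14 libraries with 8 and 5 dividing microglia and 8 and 6 dividing monocytes or macrophages. The median ratio of mean levels, dividing over other cells, was 19.8, 41.9, 24.8, 18.7 and 15.7 in the same class order. Genes at 0 on either side were left out of that ratio. Prc1 averaged 102 against 1.83 CPM in microglia. H2afz, a histone variant gene, averaged 1757 against 590 in microglia and 3101 against 820 in T cells, higher in every library that had 5 or more dividing cells. Growth-arrest genes were mixed. Of those with 20 or more UMIs, 5 of 14 in microglia, 0 of 13 in monocytes or macrophages, 2 of 13 in dendritic cells, 4 of 12 in T cells and 4 of 11 in NK cells were lower in every library, and 2, 2, 3, 1 and 3 were higher. Among the lower ones, Btg1 averaged 247 in dividing and 571 in other microglia, and Btg2 274 and 669, lower in 4 of 4 libraries. Btg1 averaged 606 and 1586 in T cells and 772 and 1818 in NK cells, lower in 3 of 3 libraries each.

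Cell identity genes also differed between dividing and other cells of a class. In microglia Tmem119 averaged 491 in dividing and 710 CPM in other cells, lower in 4 of 4 libraries, and P2ry12 averaged 494 and 715, lower in 3 of 4. In dendritic cells Xcr1 averaged 191 and 62.1, higher in 4 of 4, while Ccr7 had 2 UMIs in dividing and 3987 in other cells. In monocytes or macrophages Spp1, osteopontin, averaged 1505 and 4816, lower in 4 of 4. In T cells Il7r, the interleukin 7 receptor of resting and memory cells, averaged 64.0 and 208, lower in 3 of 3. In NK cells Gzma, a cytotoxic granule protease, averaged 2919 and 5920, and Prf1, the pore-forming perforin, 157 and 460, both lower in 3 of 3. The same thinning to equal depth picked the dividing cells in every class.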

How the data were processed

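The deposited matrices hold UMI counts per gene and cell barcode, made by the authors with Cell Ranger 3.0.1 and Seurat 2.3.4 on mm10 (GRCm38), per the submitters' processing notes; filters on cells are not given in the sources used here. Barcodes under 200 genes or over 10% mitochondrial UMIs were dropped. Cells were placed in classes by marker counts. No doublet caller was run; cells with markers of more than 1 lineage were removed. Scanpy 1.11.5 clusters, made without the members, served as an alternative. Counts were summed per library and class and tested with edgeR 4.0.16 (quasi-likelihood, TMM, filterByExpr, Benjamini-Hochberg adjustment at 0.05), with DESeq2 1.42.0 as an alternative. The edgeR fit between days was tried on simulated counts with 4-fold changes. Of the changed genes tested it recovered 61.1% in T cells, 66.3% in NK cells, 76.5% in microglia and 93.0% in monocytes or macrophages. A count of 0 called members therefore does not show an absence of change. Shares used cells thinned to 1000 UMIs (seed 1) and exact permutation tests; intervals are exact binomial and cover counting error only. Members and lists were chosen with earlier results of these data known. In each class tested for days, the text names the called members with the largest change, up to 4 per direction, always Mki67, Top2a, Ccnb1, Pcna, Mcm5 and Tyms, and up to 3 called genes per direction from the other lists. Same-numbered libraries of the 2 days did not deviate together (correlations of -0.16 to 0.03 over 8 classes), so replicate numbers only name libraries.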

Additional observations from a re-analysis of the deposited data

Results flagged for a closer look

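The change between days differed between microglia and monocytes or macrophages for 1 member and 5 genes of the other lists, each by an edgeR interaction test and given here as microglia minus monocytes or macrophages on the log2 scale. Ccnb2 differed by 3.09 (adjusted p = 0.0368) and the spindle midzone gene Prc1 by 4.38 (adjusted p = 0.0487), both having fallen further in monocytes or macrophages. For Prc1 a library of monocytes or macrophages was at 0, so its size depends on the prior count. Gadd45a differed by 1.66 (adjusted p = 0.0154). The antiproliferative genes Btg1 and Btg2 differed by -0.72 (adjusted p = 0.00524) and -0.71 (adjusted p = 0.0445), and Cdkn2d, a CDK4 and CDK6 inhibitor, by -1.11 (adjusted p = 0.0339). Between T and NK cells, H2afz differed by 1.19 (T minus NK, adjusted p = 0.00163).

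Cells left out of the classes were not part of the comparisons, and 7 of 8 groups of them held more than 3 dividing cells. That limit only chose what is listed here and is not a test of division. Several of their shares lie within the level of mature neutrophils. Among cells with markers of more than 1 lineage the shares were 10.7% (11 of 103), 4.52% (10 of 221), 3.59% (8 of 223) and 7.63% (9 of 118) in day 5 replicates 1 and 2 and day 14 replicates 1 and 2. Among cells in no class the shares were 7.39% (13 of 176), 7.80% (16 of 205) and 4.40% (4 of 91) in the first 3 of these libraries, and 1.49% (1 of 67) in day 14 replicate 2. At 5 UMIs they were 2.91%, 1.81%, 1.35% and 4.24% for the former cells and 2.27%, 2.93%, 1.10% and 0% for the latter, where no neutrophil counted.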

How the results depend on the processing

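Between days, 4 members were called in microglia: DESeq2 called 2, no filter on low counts gave 14, and clusters as classes gave 9. The 14 in monocytes or macrophages became 5 with DESeq2, 31 with no filter and 23 with clusters. The 6 in dendritic cells became 2 with DESeq2 and 4 with clusters, of which 2 were among the 6. In plasmacytoid dendritic cells no filter gave 2, in T cells 3, in NK cells 1 and in B cells 7. Clusters gave 4 in NK cells and 4 in neutrophils, where DESeq2 gave 0, and DESeq2 gave 1 in B cells. Leaving out each library in turn gave 0 to 4 in microglia, 5 to 27 in monocytes or macrophages, 5 to 12 in dendritic cells, 0 to 2 in plasmacytoid dendritic cells, 0 to 3 in neutrophils, 0 to 6 in T cells, 0 to 1 in NK cells and 0 to 5 in B cells; the lone library of a day is then assumed to vary like the others. All members called in microglia and in monocytes or macrophages were lower on day 14 in each of these fits.

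A replicate block, although the numbers pair nothing here, gave 8 calls in microglia, 13 in monocytes or macrophages, 9 in dendritic cells, 2 in neutrophils and 0 in the 4 other classes. A crossed replicate block, chosen after seeing the data, gave 27 in monocytes or macrophages and 0 in B cells.

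Between classes, the 10 calls in microglia became 5 with DESeq2, with more lower than higher among them, and 21 with no filter. Clusters gave 7 in monocytes or macrophages, 2 in dendritic cells, 7 in plasmacytoid dendritic cells, 23 in NK cells, 1 in B cells and 10 in neutrophils, where the balance of higher and lower calls turned. No filter gave 4 in dendritic cells, 9 in plasmacytoid dendritic cells, 11 in neutrophils, 22 in NK cells and 5 in B cells. DESeq2 gave 2 in dendritic cells and 2 in B cells, DESeq2 size factors in edgeR gave 2 in dendritic cells, and keeping mixed cells gave 1 in plasmacytoid dendritic cells and 2 in B cells. Leaving out a library gave 5 to 9 in microglia, 4 to 16 in monocytes or macrophages, 1 to 4 in dendritic and in plasmacytoid dendritic cells, 3 to 5 in neutrophils, 10 to 34 in T cells, 5 to 18 in NK cells and 0 to 2 in B cells. For the difference between microglia and monocytes or macrophages, DESeq2 and keeping mixed cells gave 0, no filter gave 5 and leaving out a library gave 2 to 12. For T against NK cells these were 1 with no filter and 0 to 1.

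The difference in the dividing share (day 14 minus day 5, percentage points) stayed negative in microglia and in monocytes or macrophages under all alternatives, at -12.3 to -7.24 and -3.43 to -1.35 on leaving out a library. In dendritic cells it was 0.022, but -11.1 with no thinning, -2.59 at 2000 UMIs, -2.92 with a limit of 2 UMIs, -0.303 with clusters and -1.82 to 1.86 on leaving out a library. In neutrophils it was -1.5, but 5.25, 0.743 and 1.43 with no thinning, 2000 UMIs and a limit of 2, and -3.25 to 0.247 without a library. A limit of 5 UMIs gave 0 in neutrophils and 0 in plasmacytoid dendritic cells (-7.41 to -2.00 without a library). In T cells it was 1.81, but -2.39 with a limit of 2, -1.62 with clusters and -1.38 to 5.00 without a library. In NK cells it was 0.343, but -12.7 at 2000 UMIs, -1.26 and -1.63 with limits of 2 and 5, and -2.92 to 3.61 without a library. B cells gave -7.29 to -1.77 without a library.

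The S phase share of monocytes or macrophages differed by -12.8 points, but by -23.7 without the cluster led by Ear2, Elane and Mpo (chosen after seeing the data), 7.80 with no thinning, 3.32 at 2000 UMIs, 1.32 with a limit of 2, and -29.7 to 4.16 without a library. It gave -8.65 to -5.89 in microglia and -9.93 to -4.07 in dendritic cells without a library. Among named genes, the sign turned for Top2a in microglia without day 14 replicate 1 (0.0936, with a lowest value of -1.16 on leaving out another), for Tyms in dendritic cells with mixed cells kept (0.0021) or without day 14 replicate 2 (0.057, lowest -0.0851), and for Pcna in neutrophils with clusters (-0.283), without day 5 replicate 1 (-0.350) or without day 14 replicate 1 (-0.286, highest 0.569). Without day 5 replicate 2 it turned in T cells for Mki67 (-0.364), Ccnb1 (-0.0461) and Tyms (-0.174), whose values without day 5 replicate 1 were 7.94, 7.26 and 1.6 (the first 2 set by a day 5 level of 0), and in NK cells for Top2a (-0.247, highest 0.621). In NK cells it also turned for Top2a without day 14 replicate 2 (-0.147) and for Mcm5 without day 5 replicate 1 (0.0864) or day 14 replicate 1 (0.0371, lowest -1.67). The cause was not tested in any of these cases.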

Other observations

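In border-associated macrophages, marked by Mrc1 and Pf4, the dividing share was 6.56% and 5.00% on day 5, and 1 of 14 and 0 of 9 cells on day 14. At 5 UMIs, 0 and 1 of them counted on day 5. Gamma delta T cells, which carry the other kind of T cell receptor, gave 3.30% and 6.86% on day 14 (0 of 212 and 3 of 102 at 5 UMIs), and 10 and 7 such cells were found on day 5. Plasmacytoid dendritic cells, the main makers of type I interferon, gave 7.41%, 2.00%, 0% and 0%, and 0% in each library at 5 UMIs. B cells gave 9.52%, 4.00%, 0.935% and 3.53%, and at 5 UMIs 4.76% in day 5 replicate 1 and 0% in the other libraries. A cluster led by Tnfrsf4, Foxp3 and Ctla4, made without the members, had 13 of 57 (22.8%) and 12 of 38 (31.6%) dividing cells on day 14.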
